A study of Mus musculus with 9 samples.

Results

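The clustered protocadherins are 57 of the 21670 protein-coding genes annotated on the mouse autosomes and X chromosome. They were taken by symbol (*Pcdha*, *Pcdhb* and *Pcdhg*) from GENCODE M21 on the GRCm38 (mm10) build, and all lay on the plus strand of chromosome 18. The alpha cluster held 14 gene records (36930184-37187661), the beta cluster 22 (37264938-37524479) and the gamma cluster 21 (37661793-37841873). A pair of alpha records carried the same symbol, *Pcdha11*. *Pcdhgb8* is annotated as a polymorphic pseudogene and was not counted as a member.

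Protocadherins are cell surface adhesion proteins. In the alpha and gamma clusters each gene has its own promoter and its own large variable exon, which is spliced to a set of constant exons shared by the whole cluster, whereas the beta genes are single-exon genes with no constant exons. Neurons are known for switching on different combinations of these promoters, which gives each neuron a surface identity. The C-type genes (*Pcdhac1*, *Pcdhac2*, *Pcdhgc3*, *Pcdhgc4* and *Pcdhgc5*) sit at the ends of the alpha and gamma clusters and are expressed more broadly and with less choice than the others.

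The cells were primary smooth muscle cells from the oviducts of wild-type mice, 8 to 12 weeks of age, on day 2 of pregnancy after mating. They were obtained by enzyme digestion and filtering, without a sort, and kept for some hours in culture. Chromatin immunocleavage sequencing (ChIC-Seq), in which an antibody brings micrococcal nuclease to its target and the released fragments are sequenced, was carried out with antibodies to PBRM1 (also named BAF180, the defining bromodomain subunit of the PBAF chromatin remodeler) and BRG1 (the ATPase of PBAF and related SWI/SNF remodelers), with 3 replicates for each antibody. The labels do not say whether replicates came from separate animals, so each p-value measures only the spread between these libraries. The 3 IgG samples of the series were not analysed here.

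The 6 replicate libraries held 14284532 to 23992352 fragments, with the 3 PBRM1 libraries all deeper than the 3 BRG1 libraries. There was 1 peak list per library and 1 pooled list per antibody. The height of a peak is given as its normalized pileup, the number of fragments over its summit for every 1000000 fragments of the library (FPM). The lowest peak called in a replicate list stood at 0.333 to 0.420 FPM, and the lowest in the pooled lists at 0.210 FPM for PBRM1 and 0.243 for BRG1. Weaker binding could not be called, and no peak in a list does not show that a protein was absent. Of 8 smooth muscle marker genes, 4 (*Acta2*, *Tagln*, *Smtn* and *Cald1*) had a promoter peak in all 6 replicate lists, against 38.7% of all protein-coding genes. *Des* had one in 4 lists, *Myh11* and *Mylk* in 1 list each and *Cnn1* in none. For markers of other cells the number in all 6 lists was 0 of 7 epithelial, 0 of 3 endothelial, 0 of 3 leukocyte and 1 of 5 neuronal genes (*Elavl4*). A peak in 1 to 5 lists was found for 2 epithelial, 2 endothelial and 3 neuronal genes, with *Kdr*, an endothelial receptor, in 5 lists and *Cdh1*, the epithelial cadherin, in 3.

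Few clustered protocadherin promoters carried a peak of either protein. A promoter peak was a summit within 1 kb of the start of a protein-coding transcript of the gene. The number of members with one was 1, 4 and 1 in the PBRM1 lists and 2, 3 and 3 in the BRG1 lists. The ranges of the antibodies overlapped, and the means of 2 ± 1.73 (SD, n = 3) and 2.67 ± 0.577 (SD, n = 3) did not differ beyond the spread of the libraries (two-sided exact permutation test, p = 0.8, smallest possible p = 0.1). A single member, *Pcdhgc3*, had a peak in all 6 lists, which is 1.75% of the 57 members against 38.7% of all protein-coding genes. A promoter peak in at least 1 replicate list was found for 6 members (10.5%), against 62% of all genes. The pooled lists, which hold 61910852 PBRM1 and 45216486 BRG1 fragments, marked 9 members for PBRM1 (15.8%, against 61.7% of all genes) and 6 for BRG1 (10.5%, against 64.1%). PBRM1 replicate 2 was the only PBRM1 library to mark 3 of the 4 members that had a PBRM1 replicate peak, and without it the mean difference of BRG1 minus PBRM1 was 1.67 members in place of 0.667. In none of the 8 lists was there a promoter peak for 46 of the 57 members.

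**Figure D1:**
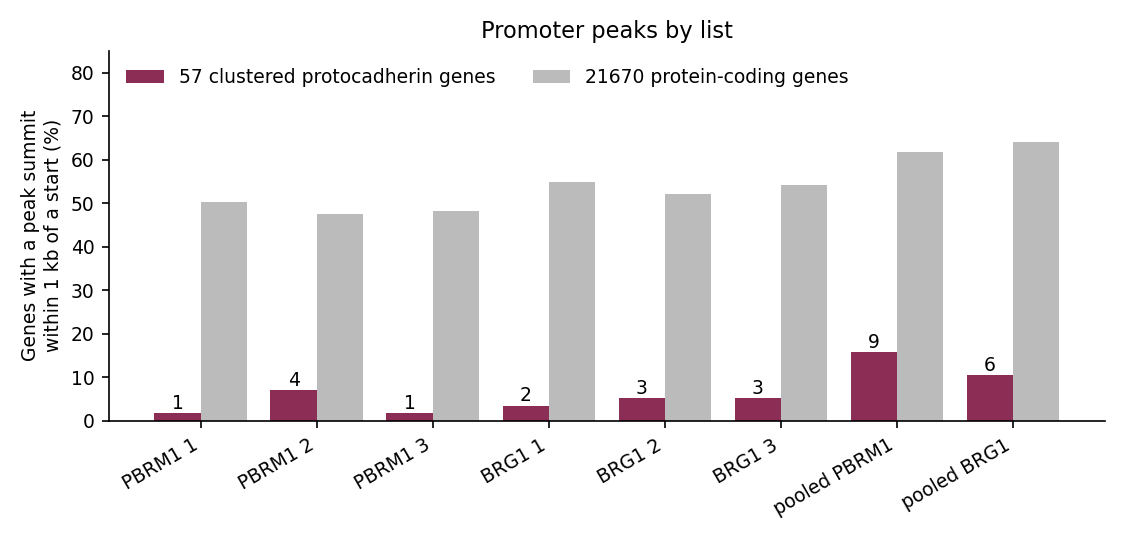
Percent of genes with a peak summit within 1 kb of a start (vertical axis) in each of the 6 replicate lists and the 2 pooled lists, for the 57 clustered protocadherin genes and for all 21670 protein-coding genes, with the number of protocadherin genes printed over their bars. The protocadherin share is 1.75% to 7.02% in the replicate lists, while 47.6% to 54.9% of all genes carried a peak in the same lists.

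The members with peaks were unevenly placed. None of the 12 alpha records before *Pcdhac1* and none of the 22 beta genes had a promoter peak in any of the 8 lists. Among the 18 gamma A and B genes, 2 had one in a replicate list (11.1%, against 62% of all protein-coding genes). In at least 1 of the pooled lists, 7 of them had one. Of the 5 C-type genes, 4 had one in a replicate list (80%, against 62% of all genes), and *Pcdhac1* had none in any list. In all 6 lists, 1 of the 5 had one (20%, against 38.7% of all genes). The 12 protocadherins that lie outside the clusters, which are separate genes of the same superfamily, served as a comparison of related genes. Of these, 3 had a promoter peak in all 6 lists (*Pcdh9*, *Pcdh17* and *Pcdh18*), 7 had one in some lists, and *Pcdh12* and *Pcdh15* had none. The shares over all protein-coding genes were 38.7% in all 6 lists and 62% in at least 1. At *Pcdh17* the PBRM1 peaks stood at 1.52, 1.66 and 1.25 FPM and the BRG1 peaks at 2.14, 1.96 and 2.59 FPM.

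*Pcdhgc3*, the first C-type gene of the gamma cluster, had the tallest promoter peak of any member in each of the 6 libraries. PBRM1 pileup was 1.77, 1.43 and 1.21 FPM and BRG1 pileup was 2.58, 2.31 and 2.53 FPM. Every BRG1 library stood above every PBRM1 library, as was so for 56.8% of the 12828 merged regions of the genome with a peak in all 6 lists. The means were 1.47 ± 0.282 for PBRM1 and 2.47 ± 0.143 for BRG1 (SD, n = 3 each, exact permutation p = 0.1, the smallest possible). In limma, fitted over these 12828 regions with Benjamini-Hochberg adjustment, the log2 difference of BRG1 minus PBRM1 was 0.77 (SE 0.19, adjusted p = 0.000621). In the same fit 53% of all regions were called with BRG1 higher and 0.413% with PBRM1 higher, and the median difference over all regions was 0.49. When the medians of the 6 libraries were set equal, which removes that shared shift, the *Pcdhgc3* difference was 0.30 (limma adjusted p = 0.289), and the calls over the genome changed from 6799 higher for BRG1 and 53 higher for PBRM1 to 314 and 288. Relative to the shift over the genome, the *Pcdhgc3* difference did not pass the test. Within each library the *Pcdhgc3* peak was taller than 62.1% to 83.3% of the regions with a peak in all 6 lists.

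The summits of the 2 proteins lay on different sides of the *Pcdhgc3* start. Measured from the annotated transcript start at 37806410, the tallest PBRM1 summits were 109, 74 and 50 bp downstream, and the offsets of the BRG1 summits were -161, -61 and -53 bp, upstream of it. The groups did not overlap (means of 77.7 ± 29.7 and -91.7 ± 60.2 bp, SD, n = 3 each, exact permutation p = 0.1, the smallest possible). Of the 8378 protein-coding genes with a promoter peak in all 6 lists, 5.63% had every PBRM1 summit downstream of every BRG1 summit. That share leaves out genes with the reverse order. It also does not require the summits to lie on opposite sides of the start, so it is not a matched share for this pattern. The distances are shorter than the fragments of 174 to 184 bp from which the peaks were built. In the pooled lists the summits were at 56 bp for PBRM1 and at -53 bp for BRG1.

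A further BRG1 region lay inside *Pcdhgc3*, at 37806979-37807476. BRG1 pileup there was 1.32, 1.33 and 1.40 FPM, and no PBRM1 replicate list had a peak. It was the only region of the clusters called in all 3 lists of one antibody and none of the other, a pattern held by 0.916% of the 82949 merged regions of the genome. The reverse pattern, with all 3 PBRM1 lists and no BRG1 list, was found at 0 regions of the clusters and at 1.22% of those in the genome. The pooled PBRM1 list did hold a peak at this place, at 0.840 FPM with a summit 814 bp after the start. BRG1 fold enrichment was 2.87, 3.02 and 3.13, against 5.50, 5.08 and 5.61 at the promoter peak beside it.

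**Figure D2:**
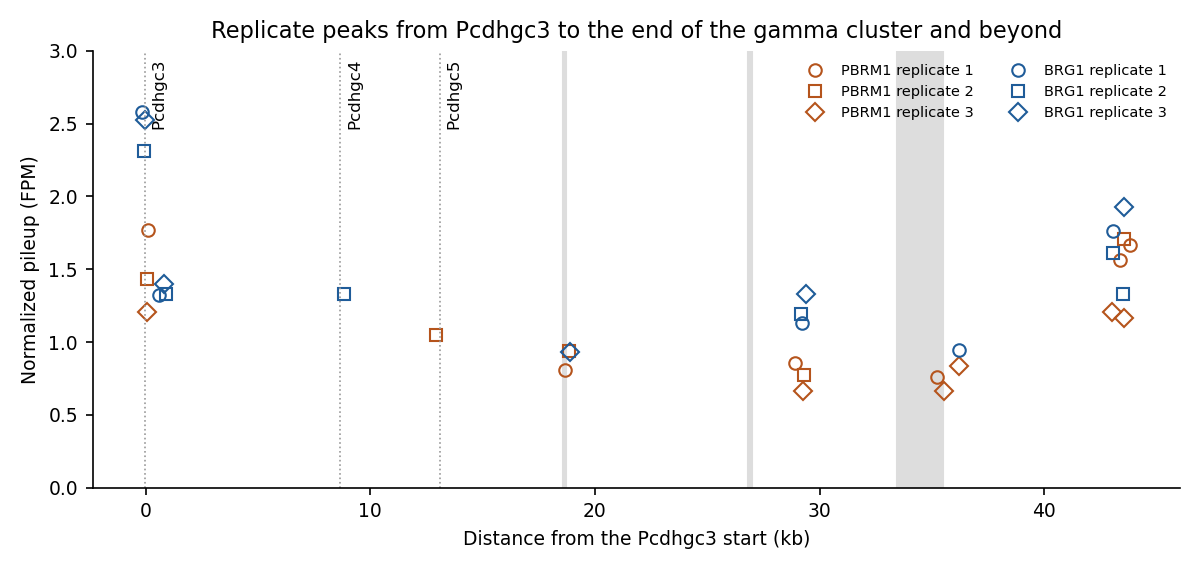
Normalized pileup (FPM, vertical axis) of each replicate peak against the distance of its summit from the *Pcdhgc3* start in kb (horizontal axis), with PBRM1 in orange and BRG1 in blue, a symbol for each replicate, dotted lines at the first bases of the C-type genes and grey bands at the 3 gamma constant exons. The *Pcdhgc3* promoter peaks stand at 1.21 to 2.58 FPM and are the tallest shown in the BRG1 libraries, while in PBRM1 replicate 2 the peak inside *Diaph1* (1.71 FPM) is taller, and *Pcdhgc4* and *Pcdhgc5* each have a peak in 1 library.

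The other C-type genes had peaks in fewer libraries. *Pcdhgc4* had a single replicate peak, in BRG1 replicate 2 at 1.33 FPM, and pooled peaks at 0.921 FPM for PBRM1 and 1.08 for BRG1. *Pcdhgc5* had one in PBRM1 replicate 2 at 1.05 FPM and a pooled PBRM1 peak at 0.711 FPM, and no BRG1 list held a peak there. *Pcdhac2*, the last gene of the alpha cluster, had BRG1 peaks at 0.755 FPM in replicate 1 and 0.732 in replicate 3. These were 2 separate summits, 8 and 995 bp after the start, and the pooled BRG1 list held a single peak, 37143280-37144585, over both. Pooled peaks at *Pcdhac2* reached 0.372 FPM for PBRM1 and 0.464 for BRG1.

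Replicate peaks at gamma A and B genes were low, at 0.399 to 0.552 FPM, where the lowest peaks called in the replicate lists stood at 0.333 to 0.420 FPM. *Pcdhga6* had them at 0.552 FPM in PBRM1 replicate 2, 0.490 in BRG1 replicate 2 and 0.399 in BRG1 replicate 3, which were 10, 7 and 6 fragments. *Pcdhga10* had one at 0.497 FPM in PBRM1 replicate 2, from 9 fragments. At these genes, as at *Pcdhgc5*, the other PBRM1 libraries had no peak. A further 5 genes were called in a single pooled list each. They were *Pcdhga3*, *Pcdhga5* and *Pcdhgb7* for PBRM1, at 0.291, 0.355 and 0.242 FPM, and *Pcdhgb2* and *Pcdhga7* for BRG1, at 0.376 and 0.464 FPM. The lowest peaks of those pooled lists stood at 0.210 FPM for PBRM1 and 0.243 for BRG1. The pseudogene *Pcdhgb8* had a peak in BRG1 replicate 2 at 0.560 FPM, and pooled peaks at 0.549 FPM for PBRM1 and 0.398 for BRG1.

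Seen along the chromosome, the clusters held 2 long stretches with no peak in any of the 8 lists. One ran from 36802144 to 37143279 (341 kb) and held the starts of 16 protein-coding genes, of which 13 were members, from *Pcdha1* to *Pcdhac1*. The other ran from 37189225 to 37643791 (455 kb) and held 23 starts, of which 22 were the beta genes and the last was *Slc25a2*, a mitochondrial carrier gene. The median distance between neighboring peaks of the 8 lists was 6.40 kb. Among 132395 such gaps, 55 held at least 16 protein-coding starts and 34 held at least 23. Of the 62 gaps with at least 14 starts, olfactory or vomeronasal receptor genes were the most common in 34.

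**Figure D3:**
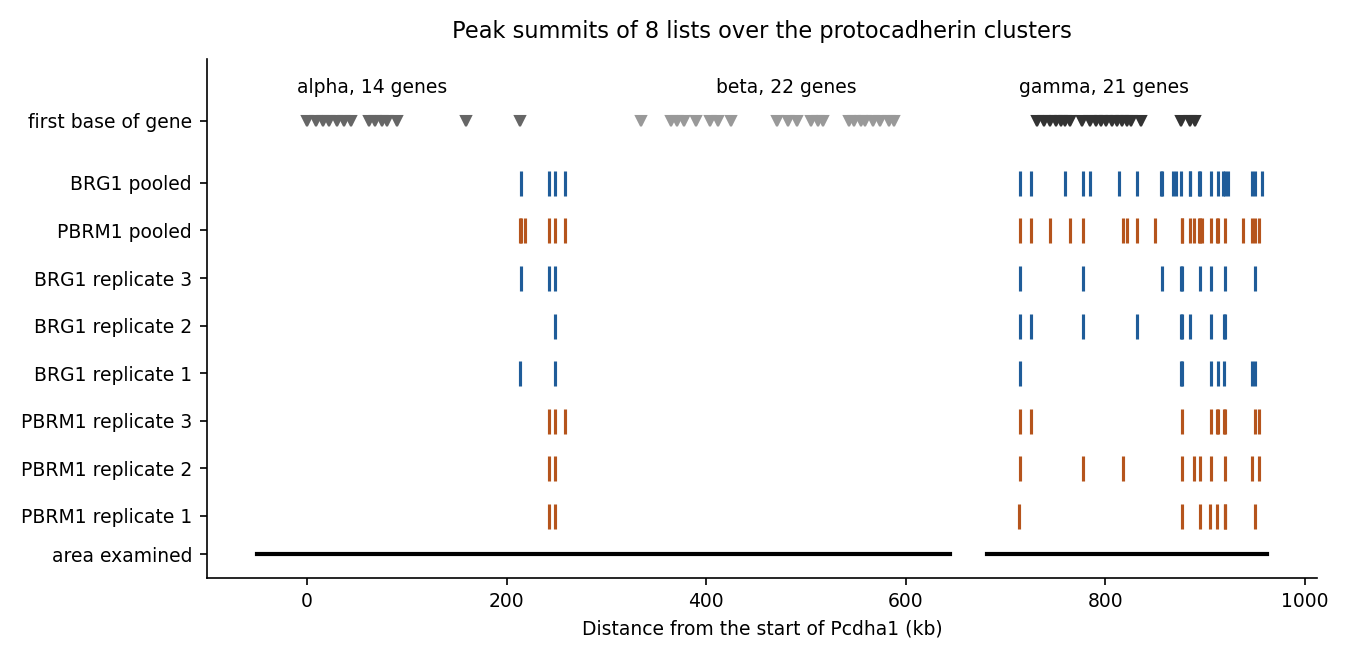
Peak summits of the 6 replicate lists and the 2 pooled lists (rows) against the distance from the start of *Pcdha1* in kb (horizontal axis), with triangles at the first base of each member and black lines under the area examined. The alpha genes before *Pcdhac2* and all 22 beta genes lie in stretches without a peak, and 41 of the 68 replicate peaks lie from *Pcdhgc3* onward, the flank with *Diaph1* included.

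Over the clusters and their flanks as a whole, most peaks lay outside the variable promoters. The clusters with 50 kb on either side (974 kb in all) held 10, 12 and 13 PBRM1 peaks and 10, 11 and 12 BRG1 peaks. The antibodies did not differ beyond the spread of the libraries (means of 11.7 ± 1.53 and 11.0 ± 1.00, SD, n = 3 each, exact permutation p = 0.8, smallest possible p = 0.1). Per megabase this was 10.3 to 13.3 peaks, against 12.5 to 15.4 in the genome. Peaks within the span of the beta genes numbered 0 in each of the 8 lists. The replicate peaks merged into 23 regions. Of these, 8 were at variable promoters, 6 at promoters of other annotated transcripts, 1 at a constant exon and 8 in other sequence. All 6 lists had a peak at 5 of the 23 regions, against 15.5% of all merged regions of the genome.

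Of the 5 regions found in all 6 lists, 4 were not at a member promoter. The first, at 37178078-37178907, lay at the start of the *Gm10544* transcript between the second and the last constant exon of the alpha cluster. PBRM1 pileup there was 0.960, 1.05 and 0.917 FPM and BRG1 pileup was 1.01, 0.840 and 1.46 FPM, so the antibodies overlapped. A neighboring region at the *Gm38097* start had PBRM1 peaks at 0.808, 0.607 and 0.709 FPM and a BRG1 peak only in replicate 3, at 0.599. Between the beta and gamma clusters, the promoter of *Taf7*, which encodes a subunit of the general transcription factor TFIID, had PBRM1 pileup of 1.21, 1.05 and 1.21 FPM and BRG1 pileup of 1.20, 1.68 and 1.40. In limma the BRG1 minus PBRM1 log2 difference was 0.14 (SE 0.22) at *Gm10544* and 0.29 (SE 0.21) at *Taf7*, and neither passed (adjusted p = 0.595 and 0.231). Both differences changed sign when the library medians were set equal, to -0.33 and -0.18.

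The remaining pair stood beyond the gamma C-type genes. One, at 37835266-37835960, lay in the intron before the last gamma constant exon, 16256 bp after the *Pcdhgc5* start. PBRM1 pileup was 0.859, 0.772 and 0.667 FPM and BRG1 pileup was 1.13, 1.19 and 1.33 FPM, without overlap (exact permutation p = 0.1, the smallest possible). Such a separation, with BRG1 higher, was found at 56.8% of the 12828 regions of the genome in all 6 lists. The limma log2 difference was 0.67 (SE 0.22, adjusted p = 0.00896), and 0.21 (adjusted p = 0.605) with the library medians set equal. The other, at 37849134-37850369, lay inside *Diaph1*, a formin that nucleates actin filaments, which follows the gamma cluster. PBRM1 pileup was 1.67, 1.71 and 1.21 FPM and BRG1 pileup was 1.76, 1.61 and 1.93, with overlapping ranges, and the limma difference was 0.22 (SE 0.20, adjusted p = 0.328). It became -0.24 with the library medians set equal.

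**Figure D4:**
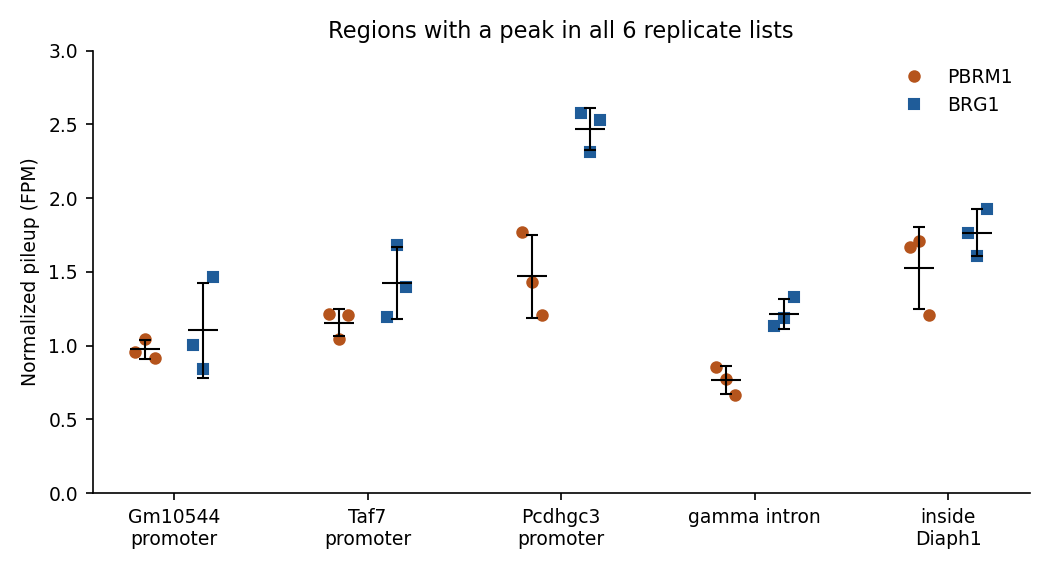
Normalized pileup (FPM, vertical axis) at the 5 regions with a peak in all 6 replicate lists, with 3 PBRM1 libraries (circles) and 3 BRG1 libraries (squares) per region, and the mean and SD as black marks. The antibodies separate at the *Pcdhgc3* promoter and in the gamma intron, with BRG1 higher, and overlap at the other 3 regions. Over the genome, 56.8% of the 12828 regions in all 6 lists had every BRG1 library above every PBRM1 library.

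Few peaks had their summit in a constant exon, but these exons are short, at 0.059 to 2.72 kb each in an area of 974 kb. Whether the peaks were fewer than that length would give was not tested. A single merged region had its tallest summit in a constant exon. It lay at 37841583-37842074, over the end of the last gamma constant exon, with PBRM1 peaks at 0.758 FPM in replicate 1 and 0.667 in replicate 3, whose summit fell just past the exon, and no BRG1 replicate peak. The pooled BRG1 list had a summit in the first gamma constant exon, at 37825067, with 0.863 FPM. The region over the end of the first gamma constant exon, 37825063-37825578, had its tallest summit in the intron after that exon, 504 bp from the start of the *Gm38182* transcript, and was called in PBRM1 replicates 1 and 2 and BRG1 replicate 3 at 0.808, 0.938 and 0.931 FPM. The other protein-coding genes that start in the area, the read-through models *Gm42416*, *Gm37013* and *Gm37388*, had no promoter peak in the 6 replicate lists, nor did *Slc25a2*.

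Background signal differed between the parts of the area. The local background implied by pileup and fold enrichment was 0.0762 to 0.182 FPM at peaks before *Pcdhgc3* and 0.169 to 0.419 FPM at peaks from *Pcdhgc3* onward, against library medians of 0.158 to 0.183 over all peaks of the genome. At the *Pcdhgc3* promoter it was 0.354, 0.366 and 0.318 FPM for PBRM1 and 0.417, 0.399 and 0.396 for BRG1. A peak there needs more fragments to be called than one in the alpha cluster, and with fold enrichment in place of pileup the *Pcdhgc3* difference was 0.50 (limma adjusted p = 0.0523).

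Peaks pooled over replicates had about the same replicate support as in the rest of the genome. Of the 30 pooled PBRM1 peaks in the area, 6 (20%, 95% Wilson interval 9.51 to 37.3) had support in each of the 3 PBRM1 lists, against 19.0% of pooled PBRM1 peaks in the genome. For BRG1 it was 5 of 28 (17.9%, interval 7.88 to 35.6), against 19.3%. No peak of a replicate list of the same antibody lay under 13 of the pooled PBRM1 and 12 of the pooled BRG1 peaks. A pooled peak of the other antibody overlapped 19 of the 30 PBRM1 peaks (63.3%, against 64.4% in the genome) and 18 of the 28 BRG1 peaks (64.3%, against 64.7%). Replicate and pooled lists share fragments, and the intervals cover counting error only.

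The groups of promoters differed in base composition. In the 500 bp on either side of the start, the ratio of observed to expected CpG had a median of 0.564 over the 57 members and 0.558 over all protein-coding genes. It was 0.684 for the 12 alpha records before *Pcdhac1*, 0.378 for the beta genes, 0.593 for gamma A and B and 0.670 for the C-type genes. In this ratio the 12 alpha promoters without peaks, at 0.569 to 0.749, thus all lay above the median of all genes. The beta promoters, at 0.158 to 0.519, all lay below it. *Pcdhgc3* had 0.797, and *Pcdhgc5*, which had a PBRM1 peak in 1 replicate list, had 0.233. The 6 members with a promoter peak in a replicate list had a median ratio of 0.676 and a median GC content of 51.6%. For the 51 members without one, the medians were 0.519 and 44.5%. The ratios of these groups overlapped, at 0.233 to 0.797 and 0.158 to 0.864. Whether peaks went with base composition was not tested. The GC content had a median of 44.9% over the members and 45.1% over the 12 alpha records, against 54.8% over all genes. The ratio is corrected for C and G content, so it is not a count of CpGs.

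**Figure D5:**
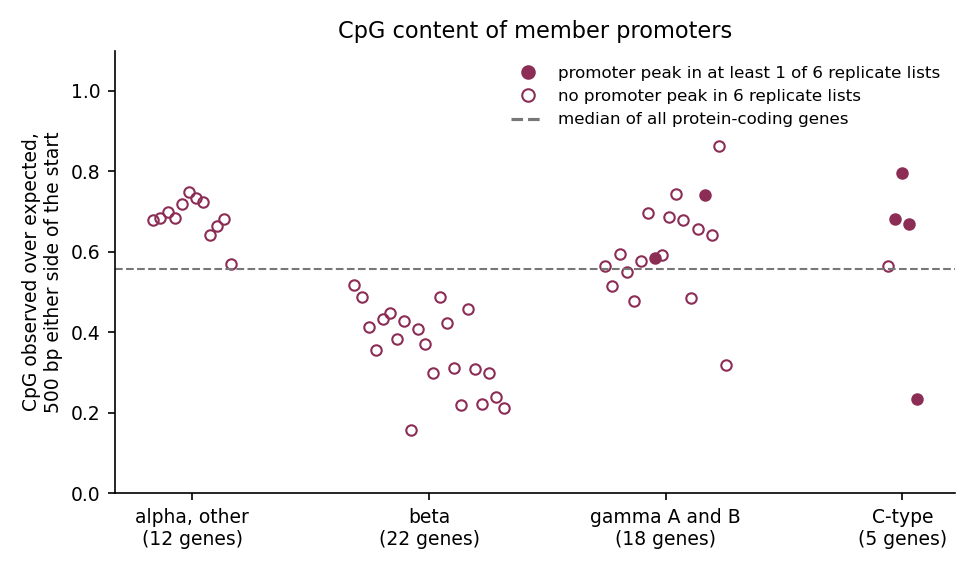
Observed over expected CpG in the 500 bp on either side of the start (vertical axis) for each of the 57 members in 4 groups, with filled points for the 6 members that had a promoter peak in a replicate list. The 12 alpha points lie at 0.569 to 0.749, above the dashed median of all protein-coding genes at 0.558, and none is filled. Their median GC content was 45.1%, against 54.8% over all protein-coding genes.

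Because the members of a cluster are alike in sequence, reads from them can map to more than one place. The share of 31-base words within 1 kb of a start that occur elsewhere in the genome had a median of 11.5% for the 12 alpha records, 0.482% for the beta genes, 2.69% for gamma A and B and 0 for the C-type genes, and the highest member was at 26.8%. At every member promoter most words of this length thus occurred once in the genome. Only exact matches were counted, so copies that differ slightly were not. Over the whole gene spans the share was 23.0% in alpha, 21% in beta and 6.92% in gamma. The part of repeated sequence in the lack of peaks was not tested.

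Of 13 genes for factors known to act on the clusters, 8 had a promoter peak in all 6 lists and all 13 had one in at least 1 list, against 38.7% and 62% of all genes. Among the 8 were *Ctcf*, the insulator protein that binds beside protocadherin promoters, and *Rad21*, a cohesin subunit. *Stag2* had a peak in 5 lists, *Nipbl*, *Setdb1* and *Rest* in 3 each and *Dnmt3b* in 1. *Ctcf* peaks were at 0.960, 0.993 and 0.709 FPM for PBRM1 and 1.45, 1.40 and 1.60 for BRG1. *Smchd1*, a silencer of the clusters, had PBRM1 peaks at 1.31, 0.993 and 1.04 FPM and BRG1 peaks at 2.14, 1.82 and 2.06. *Nipbl*, the cohesin loader, had BRG1 peaks at 1.38, 1.40 and 1.80 FPM and no PBRM1 replicate peak, though the pooled PBRM1 list held one.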

How the data were processed

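ChIC-Seq peak lists of wild-type primary oviductal smooth muscle cells (3 PBRM1 and 3 BRG1 libraries and 1 pooled list per antibody) were used as deposited. The submitters' processing notes name cutadapt, Bowtie2, MACS2 and GRCm38.p5. Their settings, and how reads with several positions or duplicates were treated before peak calling, were not given in the sources used here. The headers show that MACS 2.2.7.1 was run by the authors in narrow mode on paired-end fragments with duplicates kept, an effective genome size of 2300000000 bp, a q cutoff of 0.05 and no control file, with the local background taken over 10 kb of the same library. Sites that the nuclease cuts in open chromatin whatever the antibody could thus also be called. The deposited pileup is signal (fragment coverage at the summit), the deposited fold enrichment is a ratio of pileup to local background, and the deposited significance of a peak is its −log10 q-value. The −log10 p-value column was not used.

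Pileup was divided by the fragment total in the header and multiplied by 1000000 (FPM). Local background was recovered as (pileup + 1) / fold enrichment − 1. Starts were those of protein-coding transcripts in GENCODE M21 that begin before the constant exons (exons shared by at least 5 members), and the sequence was GRCm38.p6. No peak lay beyond a chromosome end. Replicate peaks that shared at least 1 bp were merged into regions. Counts were compared by exact permutation over libraries, and log2 FPM over the 12828 regions in all 6 lists by limma 3.58.1 (trend) in R 4.3.3, with Python 3.11.15, numpy 2.4.6 and scipy 1.17.1 for the rest. This selection keeps only regions called in every library. The limma step was tested on simulated data in which most regions had no difference between the antibodies. That test cannot speak to a shift shared by most regions. The text names members with a replicate promoter peak, the C-type genes, the other protein-coding genes starting in the area, the regions outside promoters found in the most lists, and genes from lists of non-clustered protocadherins, regulators and cell markers. *Pcdhgc3* summit offsets, *Pcdhgb8*, genes called only in pooled lists and the regions at *Gm10544* and *Gm38097* fell outside that rule and were chosen after their values were seen. The members and lists were chosen with earlier results of these data known. Alternatives changed the promoter window, the q threshold, the number of peaks, the scaling and the libraries.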

Additional observations from a re-analysis of the deposited data

How the results depend on the processing

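A total of 122 alternative values were computed for 12 results, and for 90 neither the sign nor the outcome of the test changed, or the value stayed near the main one. The exact tests of members and of peaks cannot fall below p = 0.1 and so say nothing about stability. The difference of BRG1 minus PBRM1 in the number of members with a promoter peak was 0.667, 0 with the same 31970 strongest peaks per list, and 0.167 to 1.67 when single libraries were left out. At −log10 q of at least 5 the PBRM1 lists kept 1 member each and the BRG1 lists 2, 1 and 1. The difference in peaks over the area was -0.667, 1 without flanks, and -1.50 to 0 when single libraries were left out. The summed normalized pileup of member promoter peaks was higher for BRG1 by 1.54 FPM, and by 1.06 to 2.22 FPM when single libraries were left out. The libraries overlapped, with PBRM1 replicate 2 at 3.53 FPM and BRG1 replicate 1 at 3.33. No alternative for this sum set the library medians equal. Replicate support in all lists was 0 for PBRM1 and 3.57% for BRG1 when 50% of both peaks had to overlap, 46.2% and 62.5% with the strongest 31970 pooled peaks, and 23.3% to 26.7% and 17.9% to 25.0% with 2 replicate lists. Regions called with BRG1 higher and PBRM1 higher numbered 314 and 288 with library medians equal, 1371 and 28 with fold enrichment, and 177 and 194 without division by fragments. At −log10 q of at least 5, with 6507 regions, 12 were higher for PBRM1, and leaving out single libraries gave 4977 to 6427 and 30 to 66. The call at *Pcdhgc3* was lost with library medians equal, with fold enrichment and without division by fragments (0.32, adjusted p = 0.372). So was that in the gamma intron (0.21, 0.23 and 0.23). At −log10 q of at least 5 the *Pcdhgc3* call held (adjusted p = 0.000478), and the gamma intron, *Gm10544* and *Diaph1* regions no longer had a peak in all 6 lists, so they had no value. *Gm10544* turned to -0.33, -0.022 and -0.30 under these scalings and to -0.082 without BRG1 replicate 3. *Taf7* turned to -0.18, -0.0019 and -0.16. The *Diaph1* region turned to -0.24 with library medians equal and to -0.22 without division by fragments. The cause was not tested. The labels do not say whether same-numbered libraries were paired. Deviations from the antibody mean had correlations of 6.2e-05, 0.0035 and -0.029 between them. With 3 libraries per antibody, these values cannot show whether such libraries shared a source. With the replicate block 6588 regions were higher for BRG1 and 50 for PBRM1, the *Pcdhgc3* adjusted p was 0.000872, and the differences in members, peaks and summed pileup had sign-flip p-values that cannot fall below 0.25. Depth limits the replicate lists to peaks of at least 0.333 to 0.420 FPM, and the pooled lists to 0.210 and 0.243 FPM.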
